A study of Mus musculus with 3 samples.

Results

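The hypoxia-inducible factors and the enzymes that sense oxygen for them were examined as 9 genes: the alpha subunits Hif1a, Epas1 and Hif3a, the beta subunit Arnt, the prolyl hydroxylases Egln1, Egln2 and Egln3, the ubiquitin ligase receptor Vhl and the asparaginyl hydroxylase Hif1an. The members were chosen by name for their known roles in renal mural and endothelial cells, and all 9 were found among the 39304 rows of the deposited table. The source was 1 male C57BL/6 mouse, wild type and aged 8 weeks, whose kidney glomeruli (the capillary tufts that filter blood) were dissociated. Single cells were lysed in a Fluidigm C1 microfluidic system, where qPCR for a few markers decided which kind of cell each well held. For sequencing, cDNA from 15 mesangial cells, which support the capillary loops, was combined with cDNA from 15 endothelial cells, which line them, and split into 3 aliquots. All libraries therefore belong to 1 group from 1 animal, every SD is over 3 aliquots (n = 3) and measures library making and sequencing only, and no contrast between conditions exists.

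Hypoxia-inducible factors are heterodimers of an oxygen-regulated alpha subunit and the constitutive beta subunit. When oxygen is present, the prolyl hydroxylases modify the alpha subunit, the von Hippel-Lindau protein then binds it, and the proteasome destroys it. The asparaginyl hydroxylase separately blocks its contact with the coactivators CBP and p300. This control acts on the protein, so transcript levels describe which parts of the system a cell could make and not its activity. In the kidney, the HIF2 alpha subunit encoded by Epas1 is known from endothelial and interstitial cells and the HIF1 alpha subunit from tubular epithelium.

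The deposited unit is FPKM, fragments per kilobase of gene per 1000000 reads, and the library totals recovered from it lay between 9141422 and 10976563 reads. A gene was called detected at 1 FPKM or more in every aliquot. The labelled cell types were checked against marker lists. All 11 mesangial markers were detected, with a summed level of 10018 to 10425 FPKM over the aliquots, and 8 of 10 glomerular endothelial markers, with 2638 to 2702 FPKM. Of the endothelial markers, Cldn5, which encodes a claudin of tight junctions, stood at 0 and the nitric oxide synthase Nos3 had a mean of 0.00931 FPKM. Podocytes are the glomerular epithelium that was left out of the mixture. Their list had 7 of 8 markers detected with a summed 289 to 307 FPKM, and the smooth muscle and renin cell list 5 of 6 with 172 to 187 FPKM. The 6 tubule and 7 blood cell markers were all listed at 0. The part of podocyte or smooth muscle RNA in the levels that follow was not tested, and because the cDNA was pooled, mesangial and endothelial transcripts cannot be told apart.

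Of the 9 genes, 4 were detected: Epas1, Hif1a, Arnt and Egln1. The share of detected members, 44.4%, stands beside 36.4% of the 21303 protein-coding genes and 21.7% of all rows, so the count is near the background. Vhl had reads in every aliquot but stayed below the limit, and Hif3a, Egln2, Egln3 and Hif1an were listed at 0 in each aliquot. Of all protein-coding genes, 54.6% were listed at 0 in every aliquot, and because these include genes that most cells use, a zero is reported only as listed. In a pool, fewer cells making a transcript and less transcript per cell cannot be told apart. In aliquots 1, 2 and 3 the limit that a count of 0 allows (3 reads) was 0.328, 0.288 and 0.273 reads per 1000000, for counting error only. This limit applies only where a listed 0 was a count of reads, which was not tested.

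**Figure D1:**
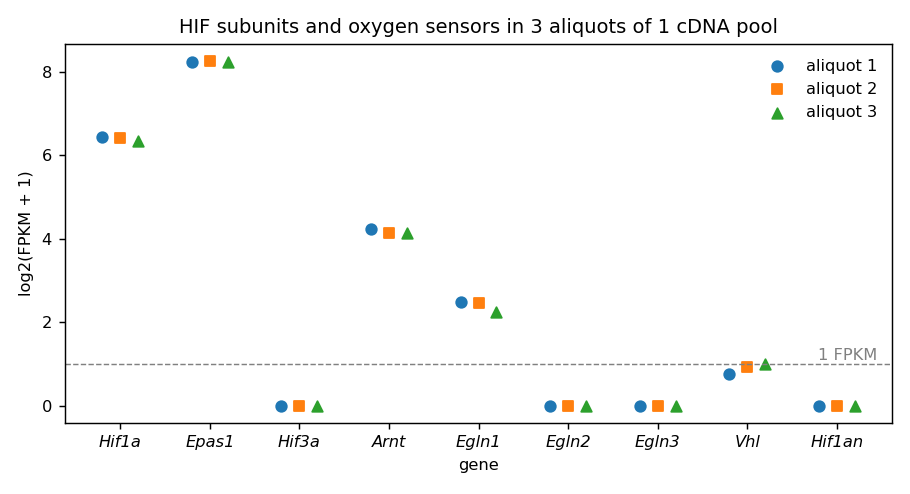
FPKM of the 9 genes on a log2(FPKM + 1) axis, with 1 point per gene and aliquot and a dashed line at 1 FPKM. Epas1 is highest at 298 to 304 FPKM, Hif1a, Arnt and Egln1 follow without overlap, Vhl straddles the line, and Hif3a, Egln2, Egln3 and Hif1an lie at 0.

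The alpha subunits were led by Epas1 (ENSMUSG00000024140, GRCm38 chromosome 17, 86753700 to 86833410, plus strand). Its level was 298, 304 and 301 FPKM in aliquots 1, 2 and 3, a mean of 301 ± 2.94 FPKM. It ranked 306 among all rows by mean FPKM, above 96.4% of the detected genes, and rested on 48844 recovered reads. Hif1a (ENSMUSG00000021109, chromosome 12, 73901375 to 73947530, plus strand), the subunit first described for the hypoxic response, had 86.0, 83.8 and 79.8 FPKM, a mean of 83.2 ± 3.13 FPKM. It ranked 1399, above 83.6% of the detected genes. The ranges of these subunits over the aliquots did not overlap. The coefficient of variation was 0.978% for Epas1 and 3.76% for Hif1a. Hif1a rested on 6110 recovered reads. Neither gene differed between aliquots beyond sampling noise in the test given below. Hif3a (ENSMUSG00000004328, chromosome 7, 17031507 to 17062427, minus strand), some of whose splice forms inhibit the other alpha subunits, was listed at 0 in all aliquots. It is the member with the longest annotated transcript, 6402 bases.

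Epas1 exceeded Hif1a in every aliquot, by a log2 ratio of FPKM + 1 of 1.78, 1.85 and 1.90. In deposited FPKM the fold was 3.62 ± 0.156, and Epas1 made up 78.3% ± 0.733 of the summed alpha subunit FPKM. The size of this difference depended on gene length. The deposited values imply a length of 5309 bases for Epas1, close to its longest annotated transcript of 5516 bases, but 2409 bases for Hif1a, which equals the mean of its 5 annotated transcripts, the longest of which has 4724. With both rescaled to the longest transcript, Hif1a had 42.4 ± 1.59 FPKM and Epas1 289.8 ± 2.83 FPKM, and the fold was 6.84 ± 0.295. In reads without division by length the fold was 7.98 ± 0.344 and the Epas1 share 88.9% ± 0.428. Epas1 was the higher under each of these choices. Of the annotated Hif1a exon bases, 8.11% are shared with other genes: 330 bases with the antisense gene Gm15283, which had 0, 0.0661 and 0 FPKM, and 148 bases with Gm49321, not analysed here. Whether the counting used strand is not given in the sources used here, and no Epas1 exon base is shared.

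**Figure D2:**
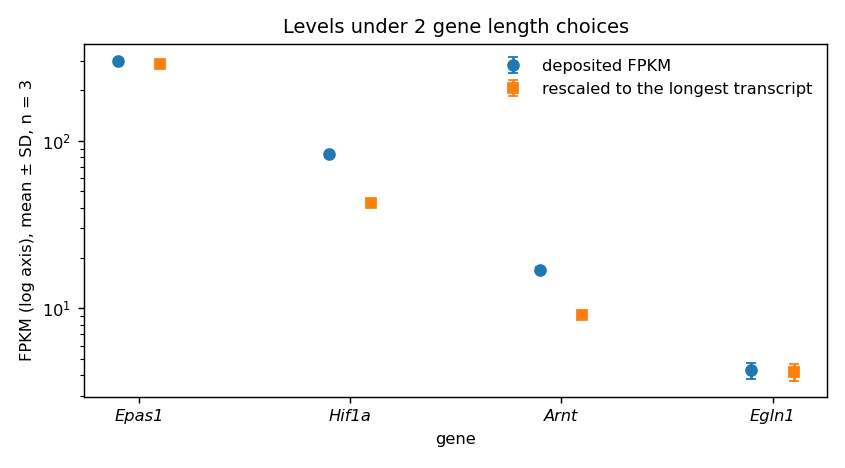
Mean FPKM on a log axis, with SD over 3 aliquots, as deposited and after rescaling from the implied gene length to the longest annotated transcript. Epas1 and Egln1 barely move, Hif1a goes from 83.2 to 42.4 FPKM and Arnt from 16.9 to 9.16 FPKM, and the order stays the same.

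The beta subunit Arnt (ENSMUSG00000015522, chromosome 3, 95434388 to 95497240, plus strand), which pairs with either alpha subunit and with the aryl hydrocarbon receptor, was lower than both. It had 17.6, 16.5 and 16.6 FPKM, a mean of 16.9 ± 0.634 FPKM, and 46.3% of the detected genes lay below it. Aliquot 1 was the highest for Arnt as for Hif1a. Hif1a was 4.92 ± 0.130 fold and Epas1 17.8 ± 0.815 fold the Arnt level in deposited FPKM. With lengths set to the longest transcript these folds were 4.63 ± 0.123 and 31.7 ± 1.45. The paralog Arnt2, best known from neurons, had 0.164, 0.336 and 0.335 FPKM, below detection in each aliquot. Arnt stood 3.81 ± 0.165 above Arnt2 on the log2(FPKM + 1) scale, which understates the difference because Arnt2 is low.

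**Figure D3:**
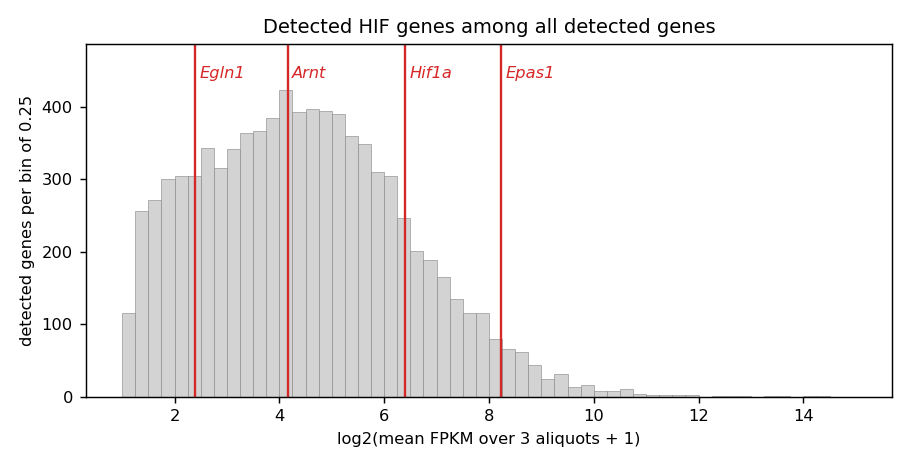
Histogram of log2(mean FPKM + 1) of the 8537 detected genes in bins of 0.25, with vertical lines at the 4 detected members. Egln1 lies on the low side, with 16.6% of detected genes below it, Arnt near the middle with 46.3%, Hif1a at 83.6% and Epas1 at 96.4%.

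Among the 4 hydroxylases, Egln1 was the only one with reads. Egln1 (ENSMUSG00000031987, chromosome 8, 124908587 to 124949324, minus strand) encodes PHD2, the main prolyl hydroxylase of the HIF alpha subunits under normal oxygen. It had 4.54, 4.53 and 3.71 FPKM, a mean of 4.26 ± 0.479 FPKM, from 146, 166 and 143 reads. Aliquot 3 was the low one, and all values stayed below the lowest Arnt value. Egln2 (ENSMUSG00000058709, chromosome 7, 27158658 to 27166802, minus strand), which encodes PHD1, and Egln3 (ENSMUSG00000035105, chromosome 12, 54178981 to 54203860, minus strand), which encodes PHD3, were listed at 0 in each aliquot. Hif1an (ENSMUSG00000036450, chromosome 19, 44562850 to 44576274, plus strand), the asparaginyl hydroxylase FIH, was also listed at 0. No exon base of Egln1, Egln3 or Hif1an is shared with another annotated gene, and Egln2 shares 11 bases with Cyp2t4, itself listed at 0. No ratio is given against a gene listed at 0.

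Egln1 and Egln3 are themselves known targets of the factors they restrain, so sequence near the starts of the prolyl hydroxylase genes is shown. For Egln2 and Egln3, both listed at 0, these are the 250 bases before a RefSeq gene start on GRCm38.p6, 5′ to 3′ on the gene's strand. For Egln1 a stretch of 30 bases from the same kind of window is given. Capitals mark the core of the hypoxia response element, ACGTG or GCGTG on either strand.
Egln1 (chr8:124949306-124949335, minus strand): ggggccgtggtgtACGTGcagcgcgcgcgg
Egln2 (chr7:27166803-27167052, minus strand): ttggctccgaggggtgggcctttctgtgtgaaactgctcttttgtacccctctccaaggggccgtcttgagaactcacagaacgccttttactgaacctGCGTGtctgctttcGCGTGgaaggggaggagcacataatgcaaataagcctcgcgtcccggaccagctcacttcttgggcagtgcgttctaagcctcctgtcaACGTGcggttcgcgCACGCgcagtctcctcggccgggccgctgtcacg
Egln3 (chr12:54203875-54204124, minus strand): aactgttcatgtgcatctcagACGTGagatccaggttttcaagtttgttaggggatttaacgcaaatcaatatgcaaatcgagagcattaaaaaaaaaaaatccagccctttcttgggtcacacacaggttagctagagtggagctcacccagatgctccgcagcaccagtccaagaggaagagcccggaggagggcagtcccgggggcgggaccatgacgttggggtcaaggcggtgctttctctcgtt
The Egln1 stretch holds the longer form TACGTG, at 124949318 to 124949323. This lies before the RefSeq start but inside the gene as GENCODE annotates it, which covers 70 bases of the window. Among detected members with an entry, Hif1a (83.2 FPKM) has 3 cores in its window, counting a CACGTG on both strands. Arnt (16.9 FPKM) has 1 and Egln1 (4.26 FPKM) has 2. Of the members listed at 0, Egln2 has 4 in the window shown and 1 in another window, Egln3 has 1 and Hif3a has 2. Whether the number of cores goes with the level was not tested. The core itself is common, since 41.5% of 27025 genes with an entry have it in at least 1 window, and 3.12% have TACGTG. It occurred for 6 of the 8 members with an entry, and Vhl and Hif1an had none of these letters in their windows. Epas1, the highest member, has no entry, so no window of it was examined. Among HIF target genes with an entry, 22 of 24 detected ones and 11 of 15 undetected ones had a core, and 1 of 24 and 3 of 15 had TACGTG. Whether a core goes with detection of these targets was not tested, and some of them have more than 1 window. The E-box CACGTG, which other factors bind, contains the core on both strands, and a match is a description of the letters only.

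Vhl (ENSMUSG00000033933, chromosome 6, 113623959 to 113631633, plus strand), the receptor that recognises hydroxylated alpha subunits, had 0.692, 0.910 and 1.01 FPKM, a mean of 0.871 ± 0.162 FPKM. Only aliquot 3 reached 1 FPKM. The smallest whole length that explains these values is 632 bases, which gives 17 reads in all, and up to 4 times as many (68 reads) would be possible within its longest transcript of 2792 bases. Its level rescaled to that transcript would lie between 0.197 and 0.788 FPKM. In order of mean FPKM the members were therefore Epas1, Hif1a, Arnt, Egln1 and Vhl, and no neighbours in this order overlapped over the aliquots.

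Whether a gene's recovered reads followed the library totals across the aliquots was tested by chi-square, with Benjamini-Hochberg adjustment over 9120 genes with at least 30 reads. Across those genes 1.09% differed beyond sampling noise, 99 genes in all, but only 2 of 8847 did without aliquot 1. None of the 4 members tested did, and none had an unadjusted p under 0.05. Hif1a came nearest, with an unadjusted chi-square p of 0.0555 and an adjusted p of 0.457. Among the 100 genes of the pathway lists 69 had enough reads, and only the chaperone Hsp90ab1 was called, with 936, 954 and 999 FPKM (chi-square test, adjusted p = 0.0091). Its adjusted chi-square p was 0.379 without aliquot 1, 0.00465 without aliquot 2 and 0.735 without aliquot 3.

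The partners of Vhl in its ligase were all detected, as was Nedd8, listed with them though not a subunit. All 5 genes of this list passed 1 FPKM, with a median of 142 FPKM, against a median of 10.6 FPKM over the 11142 genes above 0. List medians here and below count genes listed at 0, and over all 39304 rows, zeros included, the median was 0 FPKM. For this list and those below, the share of all protein-coding genes detected was 36.4%. The adaptor elongin B (Elob) had 261, 274 and 271 FPKM, elongin C (Eloc) 122, 116 and 125 FPKM, and the RING finger subunit Rbx1 135, 146 and 144 FPKM. The ubiquitin-like protein Nedd8, which activates cullins, had 252, 244 and 243 FPKM. The scaffold Cul2 was the lowest of the list at 22.4 ± 1.02 FPKM. The lowest of these 5 genes was thus above every Vhl value in each aliquot, on a per-length scale.

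Coactivators and stability factors were detected for 10 of 13 genes, and the list's median was 15.9 FPKM. Highest were the chaperone Hsp90ab1 (963 ± 32.5 FPKM), which protects alpha subunits, and Wsb1 (195 ± 7.68 FPKM), a ubiquitin ligase receptor known to act on VHL. The scaffold Rack1 (114 ± 3.19 FPKM) and the ubiquitin ligase Siah1a (53.8 ± 1.10 FPKM), which acts on prolyl hydroxylases, followed. Siah2 and the CBP-binding Cited4 were listed at 0, and Usp20, a deubiquitinase of HIF alpha subunits, had 0.0758 FPKM in aliquot 1 and 0 in the others. Of 8 other bHLH-PAS factors chosen for a list, 0 were detected, and 6 of them, among them Ahrr, Sim1, Sim2 and Npas1, were listed at 0. The list does not cover the whole family, and factors outside it were not examined.

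Of 22 other dioxygenases that consume oxygen, 18 passed 1 FPKM, with a median of 18.4 FPKM. Of the 4 HIF hydroxylases 1 passed, and of all protein-coding genes 36.4% did. The difference between these shares was not tested. The lysyl hydroxylase Plod2, which prepares collagen for cross-linking and is itself a HIF target, had 73.7 ± 1.64 FPKM, and Jmjd6 had 49.6 ± 2.06 FPKM. The histone demethylases Kdm5a and Kdm5c had 44.6 ± 0.889 and 38.7 ± 0.0614 FPKM. P4ha3 and Kdm4b were listed at 0. Tet1 had a single read in aliquot 1, and P4htm, a membrane-bound prolyl hydroxylase related to the HIF hydroxylases, had 0.967, 1.01 and 0.654 FPKM, close to Vhl.

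**Figure D4:**
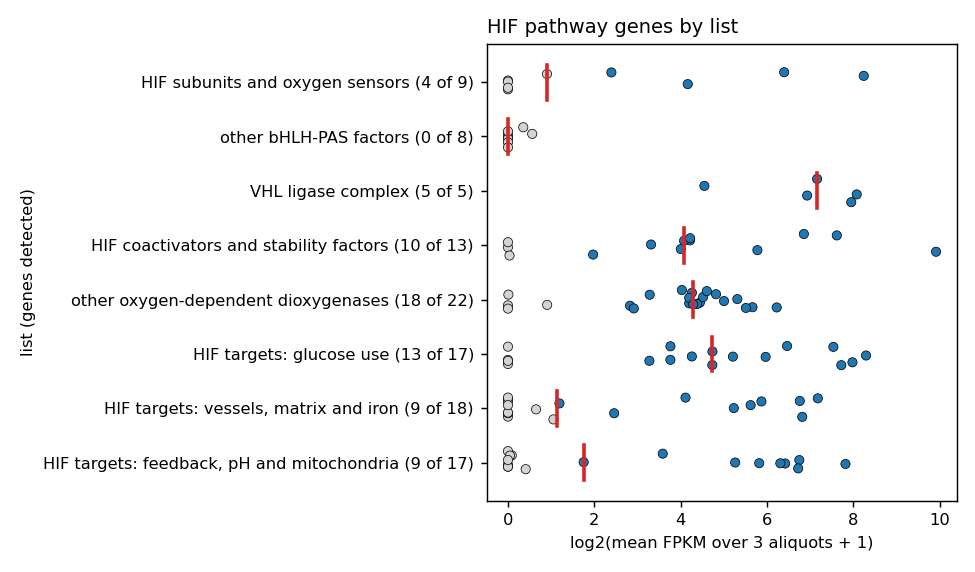
Mean FPKM over 3 aliquots on a log2(FPKM + 1) axis for each gene of the members and of 7 pathway lists, with detected genes in blue, undetected ones in grey and a red bar at each list's median. The VHL ligase list lies highest, the 8 other bHLH-PAS factors listed lie at or near 0, and the target lists hold both high genes and genes at 0.

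Genes known as HIF targets were detected in 31 of 52 cases, and their median was 11.8 FPKM. These genes also have other regulators, and the libraries hold no hypoxic or normoxic comparison. Glucose use genes were detected for 13 of 17, with a median of 25.6 FPKM: the glycolytic enzymes Aldoa (312 ± 3.71 FPKM), Gapdh (251 ± 12.2 FPKM), Ldha (210 ± 2.96 FPKM) and Tpi1 (184 ± 1.31 FPKM) led. Of the same list, Hk2, Pfkfb4, Aldoc and the lactate exporter Slc16a3 were listed at 0.

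Vessel, matrix and iron genes were detected for 9 of 18, with a median of 1.18 FPKM. The receptor Kdr had 147, 138 and 145 FPKM, the vasodilator peptide gene Adm 108, 114 and 113 FPKM, and Angpt2, a ligand of the receptor Tie2, 107 ± 0.397 FPKM. The lipoprotein lipase inhibitor Angptl4 had 57.5 ± 2.15 FPKM. Erythropoietin (Epo), the renal hormone gene classically driven by the Epas1 product in interstitial cells, was listed at 0, as were Apln, Cxcr4 and Lox. Feedback, pH and mitochondrial genes were detected for 9 of 17, with a median of 2.37 FPKM. The mitophagy receptor Bnip3l (224 ± 5.13 FPKM), the respiratory chain modulator Ndufa4l2 (106 ± 4.10 FPKM), the lipid droplet protein Plin2 (104 ± 5.62 FPKM) and Higd1a (84.5 ± 0.493 FPKM) were highest. Ankrd37, the carbonic anhydrases Car9 and Car12 and the repressor Bhlhe40 were listed at 0. Bhlhe41, the paralog of Bhlhe40 and named after its value was seen, had 80.5, 78.2 and 75.8 FPKM.

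Among the pathway genes, those nearest in mean FPKM to each detected member were Aldoa and Elob for Epas1 (312 and 269 FPKM) and Higd1a and Pgk1 for Hif1a (84.5 and 87.2 FPKM). For Arnt they were Kdm3a and Plod3 (17.3 FPKM each), and for Egln1 they included Kdm4a (6.10 FPKM). Likeness here is the difference of log2 mean FPKM over 3 aliquots of 1 pool, since these samples hold no pattern across conditions.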

How the data were processed

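Libraries of 3 aliquots of 1 cDNA pool were analysed. The table deposited by the authors gives FPKM, scaled to gene length in kilobases and to 1000000 reads of a library, and nothing more to align the aliquots. Per the submitters' processing notes, TopHat2 2.0.12, HTSeq 0.6.1 and GRCm38 were used, while for the annotation release and gene length definition the sources used here say nothing. Columns were mapped by sample title. Identifiers were paired with symbols through the reference's table (37607 of 39304 rows), with Ero1a looked up as Ero1l. Coordinates and transcript models are those of GENCODE M21 on GRCm38, possibly not the release the authors had, and promoter windows from RefSeq GRCm38.p6.

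FPKM values step by what 1 read is worth. Library totals were the most frequent 1-read value over genes under 0.5 FPKM, assuming the mean transcript length. Reads per gene used the smallest whole length that gave whole reads within 0.0001 in all aliquots, or, where 1 lay no more than 1 base from the mean transcript length, a multiple of it, and were found for 11142 of 11142 genes above 0. They add up to 96.7% of each total and can be too low by a whole factor. Count models were not used on FPKM. The chi-square test treats reads of amplified cDNA as independent and covers counting error only.

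Members, lists, pairs and marker lists were chosen with earlier results of these data known, so list counts are descriptions. Genes named are the members, the pairs, up to 4 highest detected and 4 lowest undetected genes of each list, the 2 nearest in level to each detected member, and any gene said to be named after its value was seen. Cul2 and Arnt2 serve as the lowest ligase gene and a pair member. Some marker genes are given only in counts, and 1 gene that the rule names is not reported here. Python 3.11.15, numpy 2.4.6, pandas 2.3.3 and scipy 1.17.1 were used.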

Additional observations from a re-analysis of the deposited data

How the results depend on the processing

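Of 88 recomputed values, 78 stayed within 1.5 times the count or 1 SD of the ratio. The other 10, all log2 ratios, moved further, with 0 reversed. Of the 27 recomputed log2 ratios 17 stayed within 1 SD, but most of these could not have moved. Leaving out 1 of 3 aliquots always shifts a mean by less than 1 SD. Leaving out genes under 1 FPKM does not change a pair of detected genes. Detected members numbered 5 at 0.5 FPKM (Vhl added), 3 at 5 FPKM (without Egln1) and 4 otherwise, and all 49 list counts stayed within 1.5 times. With lengths set to the longest transcript the log2 ratios were 2.74 for Epas1 over Hif1a, 2.10 for Hif1a over Arnt, 4.84 for Epas1 over Arnt and 3.01 for Arnt over Arnt2. In reads per 1000000 they were 2.99, 2.31 and 5.30 for the first 3 pairs. A pseudocount of 0.1 FPKM gave 2.29 for Hif1a over Arnt, 4.15 for Epas1 over Arnt and 5.53 for Arnt over Arnt2. Leaving out each aliquot gave 1.81 to 1.87, 2.21 to 2.25, 4.05 to 4.11 and 3.72 to 3.86 for the 4 pairs. Arnt over Arnt2 gave no value with genes under 1 FPKM left out. No member was beyond sampling noise with at least 10 or 100 reads or without any 1 aliquot, while genes called over the whole table ranged from 2 without aliquot 1 to 102. No paired analysis was possible because all samples form 1 group. Levels of different genes rest on the length behind each FPKM.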
